A study of Homo sapiens with 8 samples.

Results

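The genes that copy DNA and supply its deoxynucleotide building blocks were followed in SQ20B cells, a cell line from a head and neck squamous cell carcinoma, with and without oxygen deprivation. The set was given as 55 genes by symbol. Every entry of the deposited expression table whose RefSeq transcript belonged to 1 of them was taken, and the values were summed per gene. Transcripts of 53 of the 55 genes were found, and RFC1 and RRM2 were not analysed here. The 53 genes stood among 14524 named genes in the table, of which 12103 had a mean level of at least 0.5 FPKM (sequenced fragments scaled by transcript length and by the number of mapped reads) and formed the background. All 53 passed that minimum.

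Poly(A)-selected RNA was sequenced from 4 normoxia samples and 4 hypoxia samples, and the hypoxia samples had been kept at 0.5% oxygen for 16 h. The labels give no oxygen level for normoxia, name no genetic change, and do not say whether the replicates were separate cultures. Both groups are the same cell line in the same medium, so the comparison covers a single tumour line. The table gives 1 FPKM value per condition, the authors' value over the 4 replicates. The files give no value or depth per replicate, and the authors' own test per transcript was not used here, so the changes below carry no error, test or replicate check. A gene is counted as lower or higher where its FPKM, after adding 0.1, differed by at least 1.5-fold between the conditions. Changes are log2 of hypoxia over normoxia on that scale.

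Before a cell copies its genome, the origin recognition complex (ORC), CDC6 and CDT1 load the ring-shaped MCM helicase onto DNA, a step called licensing. In S phase the kinase CDC7 with DBF4, together with CDC45 and the GINS complex, turns the loaded rings into active helicases. Polymerase alpha with primase then starts each strand, polymerases epsilon and delta extend it on the sliding clamp PCNA, and ribonucleotide reductase and thymidylate synthase feed the forks with dNTPs. Many of these genes are textbook targets of E2F transcription factors and are transcribed as cells enter S phase. The small subunit of the reductase needs oxygen to form the radical with which the enzyme works.

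Most of the set was lower in hypoxia by a modest amount. Of the 53 genes, 45 (84.9%) had a lower FPKM in hypoxia, against 56.4% of all 12103 genes. At the 1.5-fold limit 10 genes (18.9%) were lower, against 11.2% of all genes, and 1 gene (1.89%) was higher, against 9.94%. The 10 lower genes were TIPIN, POLE3, ORC6, DBF4, POLE2, RFC2, ORC5, GINS3, GINS2 and POLD2, and the higher gene was TYMS. The median change of the set was -0.29 and that of all genes -0.07. The median level of the set was 49.3 FPKM in normoxia and 38.3 FPKM in hypoxia, and the FPKM of all its genes summed to 3874 and 3125.

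Well expressed genes as a whole were also lower. Between 10 and 200 FPKM, where 46 of the 53 genes lie, 67.0% of 5424 genes were lower in hypoxia and 12.8% passed the limit downward, against 87.0% and 21.7% of the 46. The median change there was -0.30 for the set and -0.16 for all genes. The summed FPKM of the whole table was 536005 in normoxia and 458431 in hypoxia, a log2 difference of -0.23. A sum gives most weight to the highest values, led among the background genes by the small RNA SNORA63 at 11865 FPKM in normoxia. How far such entries set the difference was not tested. When both columns were scaled to the same sum, 33 of the 53 genes (62.3%) stayed below 0 against 36.2% of all genes. Of them 2 (3.77%) then passed the limit downward and 3 (5.66%) upward, against 4.94% and 18.3% of all genes, so the share past the limit downward was above the background as deposited but not after this scaling. After quantile normalization it was 5.66% against 8.44%. Scaling to the same sum raised the median of all genes to 0.15 and turned the sign of 12 genes with small changes, CDC6, CDC7, CHAF1A, CHAF1B, MCM4, POLA2, POLD3, PRIM2, RFC4, RPA3, RRM1 and TOP2A. TIPIN and POLE3 were lower and TYMS higher by at least 1.5-fold as deposited, after that scaling, after centring on the median of all genes and after quantile normalization. In bulk RNA, fewer cells in S phase and less RNA per cell cannot be told apart.

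**Figure D1:**
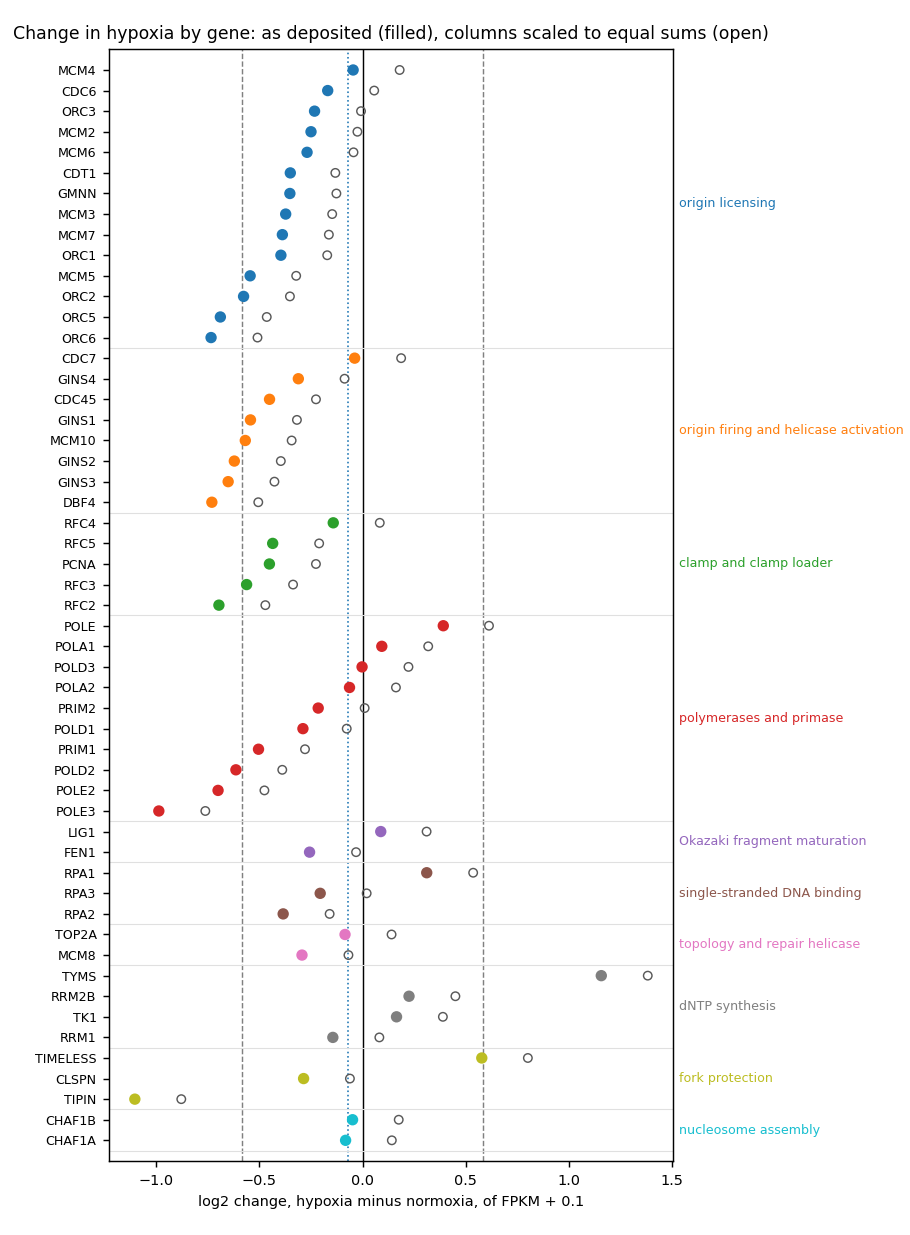
Log2 change in hypoxia of each of the 53 genes, grouped by role. Filled points are the values as deposited and open points those after both columns were scaled to the same sum. Dashed lines mark the 1.5-fold limit and the dotted line the median of all genes, -0.07. Filled points of 45 genes lie left of 0, and 12 of these lie right of 0 once scaled.

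The letters of an E2F site were more common in promoters of the set than in those of all genes. Promoter letters were not used to choose the genes. Many replication genes are textbook E2F targets, so the choice was not independent of these letters. RefSeq promoter windows (assembly GRCh38.p14, 250 bases before to 50 after each start) were found for 46 of the 53 genes, with 59 windows among them. The E2F site was searched as the letters TTTCCCGC, TTTGGCGC, TTTCGCGC and TTTGCCGC on both strands. It was present in 23 of the 46 genes and in 39.0% of their windows, against 3.31% of 35116 windows of all genes and 5.14% of 13961 windows of the background genes. Windows are shown for 4 of the genes that were lower by at least 1.5-fold, for TYMS and for POLE, to set genes of opposite direction side by side. Capitals mark the first match of the E2F letters, and each stretch is written 5′ to 3′ on the strand of its gene. In TIPIN the letters GCGCCAAA overlap that match and run on into lower case.
TIPIN (chr15:66356714-66356781, minus strand, 66 bases before the start): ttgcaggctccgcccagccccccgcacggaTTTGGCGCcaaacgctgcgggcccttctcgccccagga
GINS2 (chr16:85688948-85689015, minus strand, 31 bases before the start): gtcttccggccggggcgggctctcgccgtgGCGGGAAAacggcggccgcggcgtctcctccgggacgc
GINS3 (chr16:58392436-58392500, plus strand, 5 bases before the start): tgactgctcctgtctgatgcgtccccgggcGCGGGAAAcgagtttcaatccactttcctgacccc
POLE2 (chr14:49688185-49688249, minus strand, 5 bases before the start): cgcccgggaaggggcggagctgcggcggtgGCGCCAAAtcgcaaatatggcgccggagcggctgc
TYMS (chr18:657584-657651, plus strand, 39 bases before the start): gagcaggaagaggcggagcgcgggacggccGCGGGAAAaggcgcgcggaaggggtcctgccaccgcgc
POLE (chr12:132687323-132687390, minus strand, 18 bases before the start): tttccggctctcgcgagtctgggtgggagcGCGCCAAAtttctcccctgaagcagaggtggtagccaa
The E2F letters were found both in genes that were lower and in TYMS and POLE, whose values were higher. Their place near the start says little, because only 250 bases before to 50 after it were searched. The 23 genes with the letters had a median change of -0.29 and 4 of them were lower by at least 1.5-fold, and the 23 without had a median of -0.40 and 6 lower. The letters ACGTG, the core of the site that hypoxia-inducible factors bind, were in 17 of the 46 genes and 33.9% of their windows, against 21.4% of all windows and 25.7% of those of the background genes. These 17 included TIMELESS and RPA1, whose values were higher in hypoxia, and POLE3 and ORC6, which were lower. CCAAT, the letters bound by NF-Y, were in 28 of the 46 genes and 54.2% of their windows, against 34.6% and 35.7%. The letters TTTGAA and TTCGAA of the cell cycle homology region, common in mitotic genes, were in 5 of the 46 genes and 8.47% of windows, against 16.4% and 12.3%. A match of letters is a description and not a shown binding site.

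All 14 origin licensing genes were below their normoxia level as deposited, and all but MCM4 and CDC6 also after the columns were scaled to the same sum. Their median change was -0.36. As deposited 2 of the 14, ORC6 and ORC5, were past the limit, beside 11.2% of all genes. After scaling to the same sum 0 of the 14 were past it, beside 4.94% of all genes. ORC6, the smallest ORC subunit, listed at chr16:46723558-46732306 in hg19, had 50.03 FPKM in normoxia and 30.04 FPKM in hypoxia (-0.73). ORC5, an ATP-binding subunit of the ring, had 40.8 and 25.3 FPKM (-0.69). ORC2, another subunit of the complex, had 29.8 and 19.9 FPKM (-0.58), just inside the limit. The largest subunit, ORC1, had 23.5 and 17.8 FPKM (-0.40), and ORC3 53.8 and 45.8 FPKM (-0.23). The 5 ORC genes therefore spread from -0.73 to -0.23 with a median of -0.58, and each stayed below 0 after the columns were scaled to the same sum.

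The helicase genes MCM2 to MCM7 differed less. None of the 6 passed the limit, all 6 were lower as deposited and all but MCM4 after scaling to equal sums, and the median was -0.32. MCM5, at 11.1 and 7.58 FPKM, had the largest difference (-0.54). MCM4, the most abundant at 161 and 156 FPKM, had the smallest (-0.05) and its sign turned on scaling to equal sums. The other subunits lay between these. MCM7 had 104 and 79.6 FPKM (-0.39) and MCM3 had 107 and 82.3 FPKM (-0.37). MCM6 had 52.9 and 43.8 FPKM (-0.27) and MCM2 had 35.4 and 29.7 FPKM (-0.25). The 6 proteins assemble in equal numbers into the ring, which RNA levels need not follow. The FPKM of MCM4 was 14.5 times that of MCM5 in normoxia and 20.6 times in hypoxia. Their transcripts differ in GC content, 47.7% for MCM4 and 56.3% for MCM5, and the part of GC in this ratio was not tested. Among the loaders, CDC6 had 120.2 and 107 FPKM (-0.17), with the sign turned by the same scaling. CDT1, which brings the helicase to the origin, was the lowest of the licensing genes at 3.37 and 2.62 FPKM (-0.35). Its inhibitor geminin, encoded by GMNN, had 150.4 and 118 FPKM (-0.35). The FPKM ratio of GMNN to CDT1 was thus nearly equal in the conditions, 44.6 in normoxia and 44.9 in hypoxia.

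Genes of origin firing and helicase activation had a median of -0.56 over 8 genes. All 8 were lower as deposited, and 7 of them also after scaling to equal sums. Past the limit were 3 as deposited and 0 after that scaling, where the shares of all genes were 11.2% and 4.94%. DBF4, the regulatory subunit that the CDC7 kinase needs in order to act, had 48.1 FPKM in normoxia and 28.9 FPKM in hypoxia (-0.73). CDC7 itself had 73.2 and 71.3 FPKM (-0.04), a difference whose sign turned on all 3 rescalings. The ratio of CDC7 to DBF4 went from 1.52 to 2.46. The 4 GINS subunits, which join MCM and CDC45 in the active helicase, all lay below 0. GINS3 had 23.0 and 14.6 FPKM (-0.65) and GINS2, the most abundant of the group in normoxia, 107 and 69.7 FPKM (-0.62), both past the limit. GINS1 had 57.6 and 39.5 FPKM (-0.54). GINS4, the lowest, had 17.0 and 13.7 FPKM (-0.31). MCM10, which helps activate the loaded helicase, lay just inside the limit with 29.3 and 19.7 FPKM (-0.57), and CDC45 had 52.4 and 38.3 FPKM (-0.45).

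PCNA, the clamp that holds polymerases on DNA, had by far the highest FPKM of the set and was lower by 1.37-fold, at 829 FPKM in normoxia and 607 FPKM in hypoxia (-0.45). Its difference of 223 FPKM was 29.7% of the difference of 749.8 FPKM in the sum over the set. The replication factor C subunits load the clamp. RFC2 had 59.4 and 36.6 FPKM (-0.70) and passed the limit as deposited but not after scaling to equal sums (-0.47). RFC3 had 61.0 and 41.3 FPKM (-0.56), RFC5 72.1 and 53.3 FPKM (-0.44), and RFC4 129 and 117 FPKM (-0.14). RFC4, the most abundant loader subunit, was thus the least different, and its sign turned on scaling to equal sums. The ratio of PCNA to RFC5 was 11.5 in normoxia and 11.4 in hypoxia.

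**Figure D2:**
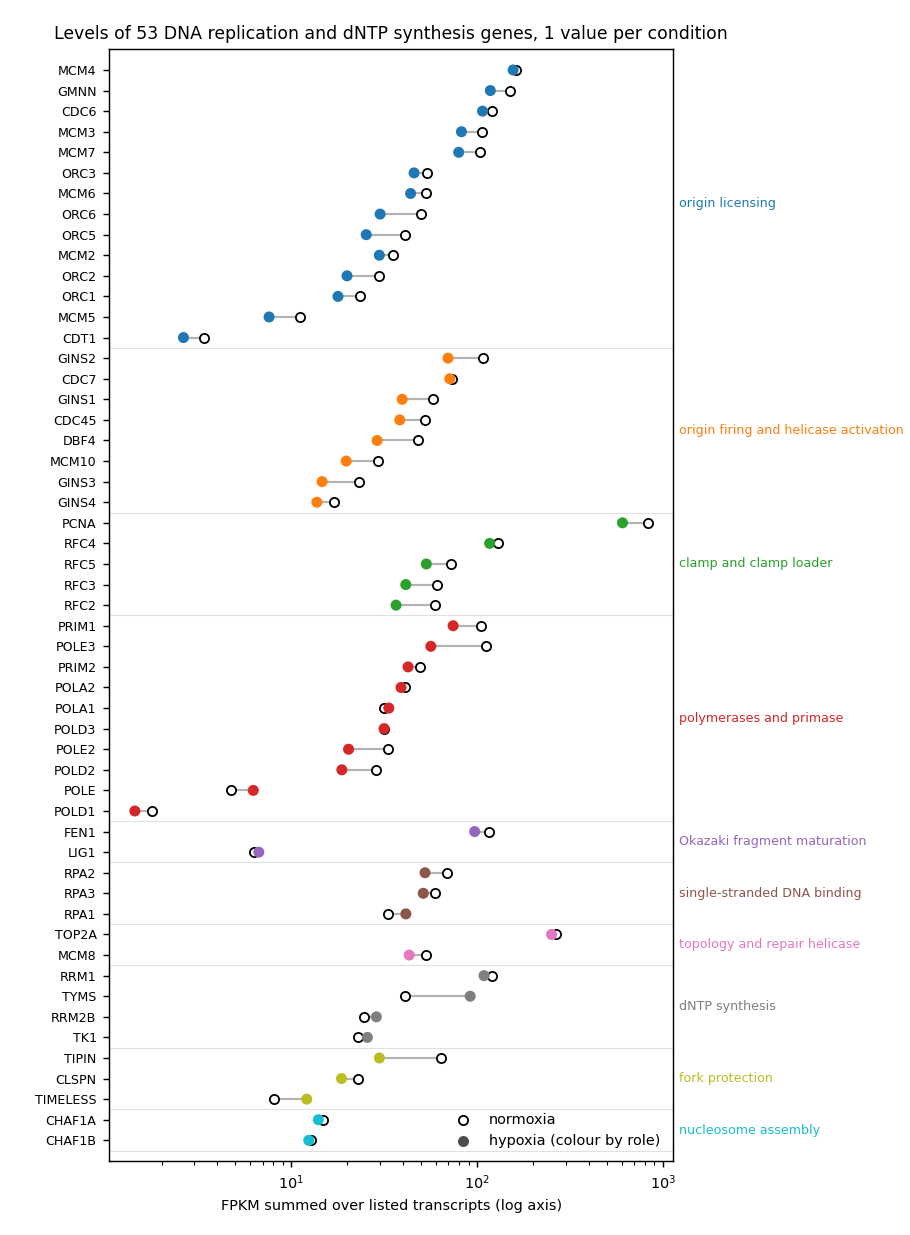
FPKM (log axis) of each of the 53 genes in normoxia (open points) and hypoxia (filled points, coloured by role), with 1 value per condition. Levels run from POLD1 at 1.78 FPKM to PCNA at 829 FPKM in normoxia. Filled points lie left of the open ones in 45 genes, with the largest gaps to the left at TIPIN and POLE3 and the largest to the right at TYMS.

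The polymerase and primase genes differed among themselves more than the licensing genes did, from -0.99 to 0.39. Past the limit downward were 3 of 10 as deposited and 1 after scaling to equal sums, where the shares of all genes were 11.2% and 4.94%. POLE3, a small histone-fold subunit of polymerase epsilon that is also part of a chromatin remodelling complex, listed at chr9:116169518-116191964 in hg19, had 112 FPKM in normoxia and 56.3 FPKM in hypoxia (-0.99, 1.98-fold lower). POLE2, the subunit that links this polymerase to the helicase, had 33.1 and 20.3 FPKM (-0.70). POLE, the catalytic subunit that makes the leading strand, had 4.73 and 6.23 FPKM (0.39). The catalytic subunit and its partners thus went in opposite directions, and the ratio of POLE to POLE3 went from 0.0423 to 0.111 and that of POLE to POLE2 from 0.143 to 0.307. POLE4, the histone-fold partner of POLE3 and no member of the set, had 57.4 and 55.1 FPKM (-0.06).

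For polymerase delta, which makes the lagging strand, POLD2 was past the limit with 28.7 FPKM in normoxia and 18.7 FPKM in hypoxia (-0.61). The POLD3 subunit had 31.6 and 31.5 FPKM. POLD1, the catalytic subunit, was listed at only 1.78 and 1.44 FPKM (-0.29), the lowest level of the set. POLD4, a small accessory subunit outside the set, was among the few pathway genes past the limit upward, at 2.21 and 3.99 FPKM (0.82). The ratio of POLD3 to POLD2 went from 1.10 to 1.69. In the polymerase alpha and primase complex, which starts strands, PRIM1 had 105 and 74.2 FPKM (-0.50) and PRIM2 49.3 and 42.5 FPKM (-0.21). POLA2 had 40.7 and 38.9 FPKM (-0.06), and the catalytic subunit POLA1 had 31.4 and 33.5 FPKM (0.09). The RNA-priming subunit was thus lower while the DNA polymerase subunits differed little.

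FEN1, the nuclease that trims Okazaki fragments, had 116 FPKM in normoxia and 97.0 FPKM in hypoxia (-0.26). LIG1, the ligase that seals them, had 6.27 and 6.68 FPKM (0.09). The 3 subunits of RPA, which coats single-stranded DNA at the fork, did not go together. RPA1, the large DNA-binding subunit, had 33.3 and 41.3 FPKM (0.31), while RPA2 had 68.5 and 52.4 FPKM (-0.38) and RPA3 59.1 and 51.3 FPKM (-0.21, turned by scaling to equal sums). The ratio of RPA1 to RPA2 went from 0.486 to 0.788. TOP2A, the topoisomerase that untangles daughter DNA, was the second most abundant gene at 267 and 252 FPKM (-0.08). MCM8, a helicase of recombination repair, had 52.8 and 43.1 FPKM (-0.29). The histone chaperone subunits CHAF1A, at 14.8 and 13.97 FPKM, and CHAF1B, at 12.8 and 12.4 FPKM, differed by less than 0.1 on the log2 scale, and their signs turned on scaling to equal sums.

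dNTP synthesis was the only role group with a positive median as deposited, 0.19 over 4 genes. TYMS encodes thymidylate synthase, which makes dTMP from dUMP and is the target of fluorouracil. It had 41.1 FPKM in normoxia and 91.8 FPKM in hypoxia (1.16, 2.23-fold higher), at percentile 97.7 of the changes of all genes. TK1, the salvage enzyme for thymidine, had 22.9 and 25.7 FPKM (0.16), and RRM2B, the p53-inducible small subunit of ribonucleotide reductase, had 24.5 and 28.7 FPKM (0.23). RRM1, the large subunit of the reductase, had 120.4 and 109 FPKM (-0.14), and its sign turned on scaling to equal sums. The ratio of TYMS to RRM1 went from 0.341 to 0.842, and that of TYMS to TK1 from 1.80 to 3.58. TYMS was the only gene of the set past the limit upward as deposited.

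TYMS shares bases with a neighbour on the other strand. In GENCODE its exons overlap those of ENOSF1 by 967 bases, and the locus listed for TYMS in hg19, chr18:596998-712662, is wider than the gene. ENOSF1 had 17.8 FPKM in both conditions. The libraries were stranded, Cufflinks was run with standard parameters, and whether its strand setting matched the libraries is not given in the sources used here. The part of the overlap in the TYMS value was not tested. Exons of 21 of the 53 genes overlap an antisense gene in GENCODE. DBF4 overlaps SLC25A40 by 145 bases (16.1 and 21.3 FPKM) and RPA1 overlaps SMYD4 by 175 bases (12.3 and 10.4 FPKM). Named pseudogenes exist for 12 of the genes, TIPIN, TYMS, PCNA, DBF4 and POLD2 among them, and reads shared with these copies could be split by the authors' estimation.

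Fork protection held the gene with the largest drop of the set. TIPIN, listed at chr15:66629008-66649054 in hg19, had 64.1 FPKM in normoxia and 29.8 FPKM in hypoxia (-1.10, 2.15-fold lower), at percentile 1.87 of the changes of all genes. Its protein binds TIMELESS, and the pair travels with the fork and passes the checkpoint signal on. TIMELESS had 8.07 and 12.1 FPKM (0.58, 1.49-fold higher), just inside the limit, and it passed the limit after each of the 3 rescalings. The ratio of TIMELESS to TIPIN therefore went from 0.126 to 0.406, a difference of 1.68 on the log2 scale. CLSPN, the checkpoint mediator that works with the pair, had 22.7 and 18.6 FPKM (-0.29).

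**Figure D3:**
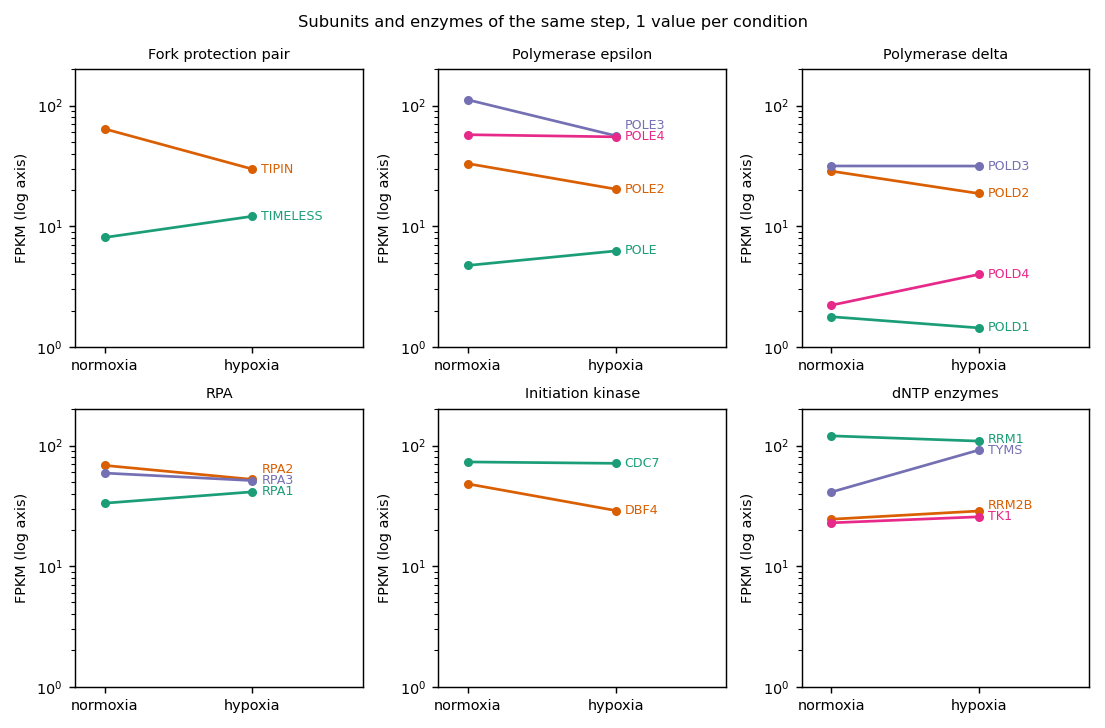
FPKM (log axis) in normoxia and hypoxia of genes whose products act in the same complex or step, with 1 value per condition. Lines cross in no panel but converge for TIPIN and TIMELESS, for POLE and POLE2 and for TYMS and RRM1, and spread for CDC7 and DBF4. POLE4 and POLD4 are not members of the set.

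The makeup of transcripts could shift only in genes with more than 1 listed transcript. Of 96 listed transcripts, 27 genes had 1 and 26 genes had more. LIG1 fell just short of a move of 10 percentage points, at 9.99 points. RFC5 was the only gene in which the share of a transcript moved by at least 10 percentage points. Its main transcript NM_007370 had 62.4 FPKM in normoxia and 39.9 FPKM in hypoxia and went from 86.6% to 74.8% of the gene, while NM_181578 had 5.78 and 7.998 FPKM. Taken alone, the main transcript of RFC5 was lower by -0.65 and passed the limit that the gene sum did not. The same held for the main transcript of ORC2 (-0.66), while that of GINS3 (-0.51) no longer passed it. In LIG1 the coding transcript NM_000234 had 3.37 and 2.92 FPKM (-0.20), and the higher gene sum came from the noncoding NR_110296 at 2.91 and 3.76 FPKM. POLD1 was listed almost wholly as the noncoding NR_046402, 92.3% of its FPKM in normoxia and 99.2% in hypoxia, and its coding transcript NM_002691 stood at 0.136 and 0.0122 FPKM. The coding levels of LIG1 and POLD1 were therefore lower than their gene sums.

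Levels and changes were also set beside GC content and length of the GENCODE canonical transcript, known for all 53 genes and for 97.2% of the background. Across the 53 genes the log2 normoxia level had a Pearson r of -0.55 and a Spearman rho of -0.41 with GC content, against -0.33 and -0.34 across 11764 genes. The 10 genes with at least 55% GC had a median of 12.9 FPKM, and the 9 genes under 40% had 53.8 FPKM. CDT1 (64.3% GC), POLD1 (64.8%), LIG1 (59.9%), POLE (56.4%) and MCM5 (56.3%) were the 5 lowest of these in normoxia. The change had little relation to GC, with an r of 0.18 across the set. It was higher in longer transcripts, with an r of 0.32 and a rho of 0.41 against 0.20 and 0.23 across all genes. The 6 genes of at least 5000 bases had a median change of 0.00, and the 20 genes of 1500 to 3000 bases had -0.51, where all genes had 0.07 and -0.14. Several partners that went in opposite directions as deposited differed in length. TIMELESS has 5158 bases and TIPIN 1728. POLE has 7823, POLE2 1692 and POLE3 2194. RPA1 has 4847, RPA2 1584 and RPA3 2020. POLD4, outside the set, and POLD2 also went in opposite directions, at near lengths of 1694 and 1609 bases. These points share libraries, genes are not independent replicates, and the part of length in the changes was not tested.

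**Figure D4:**
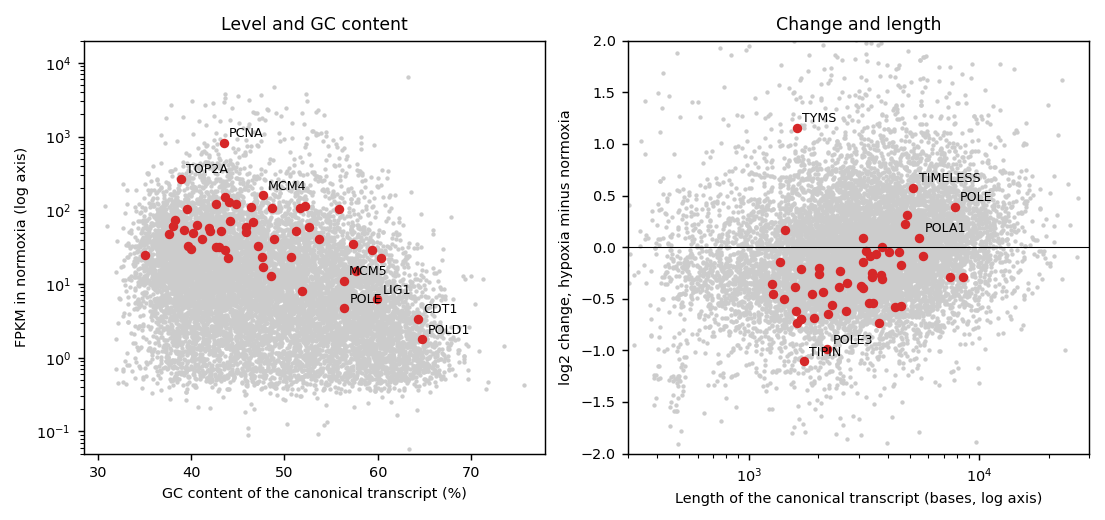
Left, normoxia FPKM (log axis) against GC content of the canonical transcript. Right, log2 change in hypoxia against transcript length (log axis). Red points are the 53 genes and grey points all genes with an annotated transcript, and grey points beyond the axis limits are not drawn. Red points fall with GC content on the left, down to POLD1 at 64.8% GC, and rise weakly with length on the right, with TYMS far above the rest of its length.

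Genes of the same pathway outside the set, 40 in a fixed list of which 38 passed the minimum, had a median change of -0.23. Of these, 31 (81.6%) were lower as deposited and 19 after scaling to equal sums, 5 (13.2%) were lower by at least 1.5-fold and 2 (5.26%) higher. The shares of all genes were 56.4% lower as deposited, 36.2% after scaling, 11.2% past the limit downward and 9.94% upward, so the share past the limit downward was near the background. All 11 nucleotide supply genes were lower as deposited, and 7 after scaling to equal sums. NME1, a nucleoside diphosphate kinase that makes dNTPs from the diphosphates, had 344 FPKM in normoxia and 147 FPKM in hypoxia (-1.23), while its close paralog NME2 had 722 and 566 FPKM (-0.35). Reads shared by these close paralogs can be split between them, so their separate values are uncertain. DCTPP1, which removes damaged dCTP, had 31.1 and 17.0 FPKM (-0.86), and DTYMK, the thymidylate kinase that acts on the product of TYMS, had 37.0 and 23.5 FPKM (-0.65). The kinase that follows TYMS was thus lower where TYMS was higher.

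All 5 nucleosome assembly genes outside the set were lower as deposited, and 4 after scaling to equal sums. ASF1A, a histone H3-H4 chaperone, had 37.8 FPKM in normoxia and 17.6 FPKM in hypoxia (-1.09), and its paralog ASF1B had 41.3 and 32.9 FPKM (-0.33). CINP, a protein that binds CDC7 and CDK2, had 46.8 and 30.04 FPKM (-0.64). TICRR, which helps CDC45 load at origins, was higher at 4.86 and 7.41 FPKM (0.60). RECQL4, a helicase of replication initiation at 0.494 and 0.457 FPKM, and CHTF18, an alternative clamp loader subunit at 0.120 and 0.140 FPKM, were below the minimum level and were not counted.

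**Figure D5:**
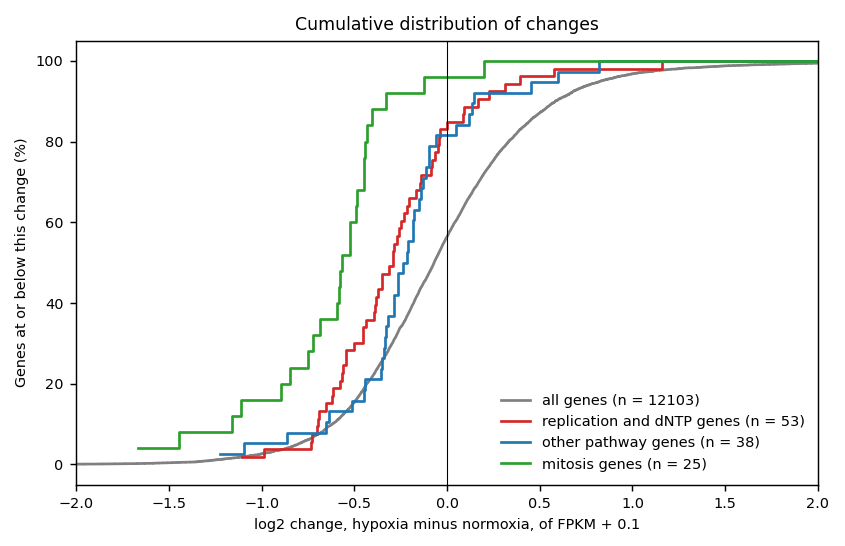
Cumulative share of genes (%) at or below each log2 change in hypoxia for the 53 genes of the set, the 38 other pathway genes, 25 mitosis genes and all 12103 genes, as deposited. The curve of the set reaches 84.9% at a change of 0, against 56.4% of all genes, and the curve of the mitosis genes lies further left, with a median of -0.57.

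Changes of mitosis genes had a lower median than those of the replication set. Of 25 mitosis genes 11 (44%) were lower by at least 1.5-fold and 24 were below 0, or 6 and 23 after scaling to equal sums, with a median of -0.57 against -0.29 for the replication set. CDC20, the activator that starts anaphase, had 94.6 FPKM in normoxia and 29.7 FPKM in hypoxia (-1.67). Of 16 E2F and RB genes, the regulators of the S phase programme, 7 were lower and 2 higher by at least 1.5-fold, or 1 and 2 after scaling to equal sums. As deposited, 10 of the 16 were below 0 and 6 above. E2F1 had 9.41 and 6.12 FPKM (-0.61), and E2F7 had 9.48 and 15.2 FPKM (0.68). E2F4 (-0.62), E2F5 (-0.70) and E2F6 (-0.69) were lower like E2F1, so the 2 named first do not stand for the list. No test of these differences between lists was made.

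The labelled conditions were checked on hypoxia response genes. Of 12 such genes 11 were analysed, LDHA not. All 11 were higher by at least 1.5-fold in hypoxia, from VEGFA at 1.02 to NDRG1 at 5.58 on the log2 scale. Of 10 squamous epithelial markers 9 were analysed, KRT14 not, and all 9 passed the minimum level, from ITGB4 at 2.06 FPKM to KRT5 at 398 FPKM in normoxia. KRT6A was lower (-0.63) and ITGB4 higher (0.85) by at least 1.5-fold. Of 10 markers of blood, vessel, stromal or pigment cells 3 were analysed, and they summed to 7.81 FPKM in normoxia and 8.94 FPKM in hypoxia. ACTA2, a stromal actin that epithelial lines also express, made up most of it at 7.57 and 8.62 FPKM, and CD14 and MLANA stayed under 0.2 FPKM.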

How the data were processed

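SQ20B RNA was sequenced from 4 normoxia and 4 hypoxia samples, grouped by the source label. The authors prepared stranded poly(A) libraries and aligned reads to RefSeq hg19 with STAR 2.3.0.1. FPKM per transcript came from Cufflinks 2.1.1 (Cuffdiff), and the deposited table holds 1 FPKM value per condition, pooled over replicates. Its fold change, test statistic, p-value and q-value columns are the authors' own comparison and were not used. The files give no depth per sample, so no interval is given.

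Of 24812 entries, 24289 (97.9%) were paired with a gene symbol through RefSeq accessions (GRCh38.p14) and 523 were left out. FPKM was summed per gene, genes with a mean of at least 0.5 were kept, and changes were computed as log2 of (hypoxia + 0.1) over (normoxia + 0.1), which understates changes of low genes. A gene was called past 1.5-fold. The planned limma test needs replicate values and was not run. The calculation was tested on simulated data. Every member was described by role, with values for those past the limit, at the extremes of a role group or opposite to their complex. In the pathway list those past the limit were named. POLE4, ASF1B, NME2, RECQL4, CHTF18, CDC20, E2F1, E2F4, E2F5, E2F6, E2F7 and the overlapping neighbours were chosen after their values were seen. The members and lists were chosen with earlier results of these data known. Listed loci are those of the table (hg19, counted from 1), and a locus can span neighbouring genes. GC content, length and antisense overlap came from GENCODE v44lift37. Python 3.11.15 with pandas 2.3.3 and numpy 2.4.6 was used.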

Additional observations from a re-analysis of the deposited data

How the results depend on the processing

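Pseudocounts of 0.01 and 1, no minimum level and a minimum of 1 FPKM left 10 members lower, 1 higher and 45 below 0. Scaling mattered more. With columns scaled to equal sums 2 members were lower (POLE3 and TIPIN) and 3 higher (POLE, TYMS and TIMELESS), with 62.3% below 0 and 3 pathway genes lower. With changes centred on the median of all genes 7 members were lower and 2 higher, and 3 pathway genes were lower. With quantile normalized columns 3 members were lower and 2 higher, with 64.2% below 0 and 3 pathway genes lower. The background shares below 0 were 36.2%, 50% and 48.5%, and those past the limit downward 4.94%, 8.76% and 8.44%, against 3.77%, 13.2% and 5.66% of members. The share of members past the limit downward was thus above the background as deposited and when centred, and below it under the other scalings. The median of members minus that of all genes stayed between -0.16 and -0.26 across these settings and the choice of the top transcript. A fold limit of 0.32 on the log2 scale gave 25 members lower, 3 higher and 13 pathway genes lower, against 27.8% and 20.6% of all genes lower and higher. A 2-fold limit left 1 member lower (TIPIN), 1 higher (TYMS) and 2 pathway genes lower. That was 1.89% of members in each direction, against 2.62% of all genes lower and 3.21% higher. The main transcript alone gave 11 members lower (ORC2 and RFC5 added, GINS3 lost) and 6 pathway genes lower. Those members were 20.75% of the set, against 11.83% of all genes. No gene past the limit changed sign. No paired analysis was possible because the table holds no value per replicate, and for the same reason leaving out each replicate was not run. The files give neither depth nor error per sample, so differences near 0, such as those of POLD3, CDC7 and MCM4, could not be set against an error.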
